A study of Mus musculus with 22 samples.

Results

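Immediate early genes are those whose transcription a cell starts from factors it already holds, without making new protein first. The best known are the Fos and Jun genes, which encode subunits of the AP-1 transcription factor. Described here are 10 immediate early genes outside AP-1, chosen by name from the 52636 genes in the expression table. They are Egr1, Egr2, Egr3, Nr4a1, Nr4a2, Ier2, Ier3, Ier5, Zfp36 and Srf. Each of the 10 was listed with a value in all 22 libraries, which for Egr3 was as low as 0.

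RNA-seq was made from duodenal organoids grown from crypts of adult wild-type mice of the outbred CD1 stock, each line from 1 animal. Cold atmospheric plasma (CAP) is a partly ionised gas, here a helium jet, that leaves reactive oxygen and nitrogen species in culture medium. The 4 untreated libraries came from lines numbered here 1 to 4 (CD1, WT2, 1 and 2 in the sample titles), and lines 1, 2 and 4 gave 3 libraries in each of 6 treated groups. In direct CAP the jet was applied to the culture itself, and the treated medium stayed on the organoids for 30 min or 24 h. In indirect CAP, untreated organoids received medium taken from a CAP-treated culture. In PAM (plasma-activated medium), they received medium that had been treated with no cells in it. The labels give 30 min or 24 h for the indirect and PAM groups as well. In the study's design these organoids were exposed for 24 h, from day 1 or from day 2 after replating, and collected on day 3. Groups labelled 30 min are called day 1 here and those labelled 24 h day 2. By that design, day 1 groups received newly treated medium, then fresh medium for the last 24 h. Those of day 2 received, up to collection, medium that had been treated a day earlier. The sources differ on when the 30 min direct group was collected, so its time after treatment is uncertain. Lines 1 and 2 were at passages 12 and 14 and lines 3 and 4 at passage 4, so passage and line cannot be told apart. The study lists its lines at passages 12 and 14 as male and its other wild-type lines without a transgene as female. None is listed at passage 4. If lines 3 and 4 were female, sex cannot be told apart from passage and line either. No helium-only group was analysed here.

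The EGR proteins are zinc finger transcription factors that bind GC-rich sites and are switched on by growth factor and stress signals through the ERK kinases. Nr4a1 (Nur77) and Nr4a2 (Nurr1) are orphan nuclear receptors, often induced through CREB, which binds the half-site TGACG. Zfp36 encodes tristetraprolin, which binds AU-rich elements and hastens the decay of mRNAs for inflammatory mediators. Srf is the serum response factor, which binds CArG boxes in the promoters of many immediate early genes, its own included, together with ELK-type or MRTF cofactors. Ier3 is linked to survival under stress and NF-κB signalling, and Ier5 to the heat shock factor HSF1. Ier2 is a short nuclear protein whose role is less settled.

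Promoter sequence was available for 7 of the 10 genes, as 11 windows of 300 bases (250 before and 50 after each start site) from RefSeq on GRCm38.p6. There was no window for Egr1, Egr3 and Ier2, so whether they hold any of these motifs was not examined. Sequences are shown because the members with a window differ in their CArG boxes and TGACG half-sites, though Srf and Egr2 hold both. A link between these motifs and the expression values was not tested. Both strands were searched for the CArG box, for TGACG and for GCGNGGGCG, the GC-rich element bound by EGR proteins. The CArG box was present in 1.63% of all 32851 mouse windows, TGACG in 20.8% and GCGNGGGCG in 5.55%. Each sequence below runs 5′ to 3′ on the gene's strand, with motif matches in capitals. The first set holds the 3 genes with a CArG box, at chr17:46556113-46556412 (minus strand) for Srf, chr7:28379179-28379478 (minus strand) for Zfp36 and chr10:67537619-67537918 (plus strand) for Egr2:
Srf: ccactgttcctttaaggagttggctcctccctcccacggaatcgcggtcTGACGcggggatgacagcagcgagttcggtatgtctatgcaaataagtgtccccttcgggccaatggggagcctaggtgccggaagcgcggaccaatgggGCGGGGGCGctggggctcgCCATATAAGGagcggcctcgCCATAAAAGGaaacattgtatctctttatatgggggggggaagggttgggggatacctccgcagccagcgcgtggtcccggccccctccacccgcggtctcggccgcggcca
Zfp36: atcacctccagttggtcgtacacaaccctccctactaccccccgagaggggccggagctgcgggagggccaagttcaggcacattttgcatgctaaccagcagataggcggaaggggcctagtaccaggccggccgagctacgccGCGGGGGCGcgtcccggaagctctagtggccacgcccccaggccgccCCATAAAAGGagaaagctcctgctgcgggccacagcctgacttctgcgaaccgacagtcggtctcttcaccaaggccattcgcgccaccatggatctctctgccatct
Egr2: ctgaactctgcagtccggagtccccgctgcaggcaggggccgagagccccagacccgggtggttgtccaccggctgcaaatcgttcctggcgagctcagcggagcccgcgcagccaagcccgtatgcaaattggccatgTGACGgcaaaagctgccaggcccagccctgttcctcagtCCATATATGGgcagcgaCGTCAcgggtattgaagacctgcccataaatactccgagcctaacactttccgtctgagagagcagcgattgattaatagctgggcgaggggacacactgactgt

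Srf held 2 CArG boxes, which began 82 and 62 bases before the start site, and 1 match each to TGACG and GCGNGGGCG. Zfp36 held 1 CArG box, which began 58 bases before the start, and 1 GCGNGGGCG match. A CArG box was found in 4 of the 5 Egr2 windows, and the window shown also held 2 TGACG half-sites. Some of these windows overlap and share the same box, so they are not separate finds. The second set holds the 2 nuclear receptor genes, at chr15:101266596-101266895 (plus strand) for Nr4a1 and chr2:57123954-57124253 (minus strand) for Nr4a2:
Nr4a1: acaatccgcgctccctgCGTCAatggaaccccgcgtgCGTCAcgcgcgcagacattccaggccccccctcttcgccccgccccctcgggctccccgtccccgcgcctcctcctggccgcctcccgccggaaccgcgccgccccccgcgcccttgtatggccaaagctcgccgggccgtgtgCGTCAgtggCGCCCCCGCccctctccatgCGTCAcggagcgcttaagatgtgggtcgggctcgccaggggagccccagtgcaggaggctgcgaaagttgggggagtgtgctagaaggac
Nr4a2: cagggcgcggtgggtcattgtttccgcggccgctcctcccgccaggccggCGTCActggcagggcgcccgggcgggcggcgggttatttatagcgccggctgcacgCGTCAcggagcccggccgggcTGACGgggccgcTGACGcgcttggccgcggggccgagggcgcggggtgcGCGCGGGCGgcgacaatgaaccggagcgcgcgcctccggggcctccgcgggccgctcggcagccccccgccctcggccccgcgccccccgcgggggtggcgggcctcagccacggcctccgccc

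Nr4a1 and Nr4a2 each held 4 TGACG half-sites and 1 GCGNGGGCG match, with no CArG box. The windows of Ier3 and Ier5 held none of the 3 motifs. A match describes the letters of the window and says nothing of whether a factor was bound in these organoids.

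In untreated organoids the 10 genes covered a wide range of levels. The unit is the scaled read count, in which the authors brought each library to about 20 M reads. The study's legends describe it as already divided by transcript length. In the table, however, the step worth 1 read was the same, within 2%, in genes shorter and longer than the median in 21 of 22 libraries, so the values were taken as not divided. Undivided, Ier5 (1687) and Ier2 (1685) were level by their untreated means. Divided here by exonic length, the mean untreated level was highest for Ier2, at 1107 ± 88.4 per kb (SD, n = 4). Ier5 (515 ± 85.09 per kb) and Srf (418 ± 24.6 per kb) came next and overlapped each other. Zfp36 (193 ± 22.01 per kb) and Ier3 (175 ± 66.1 per kb) also overlapped. Below them stood Egr1 (73.8 ± 10.8 per kb), Nr4a2 (38.2 ± 3.87 per kb) and Nr4a1 (28.0 ± 4.94 per kb), which did not overlap with their neighbours in the order. Egr2 (2.21 ± 0.779 per kb) and Egr3 (0.567 ± 0.293 per kb) were close to 0. On the scaled read count itself, Egr2 stayed between 1 and 28 and Egr3 between 0 and 11 in all 22 libraries, where a few reads decide the value.

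**Figure D1:**
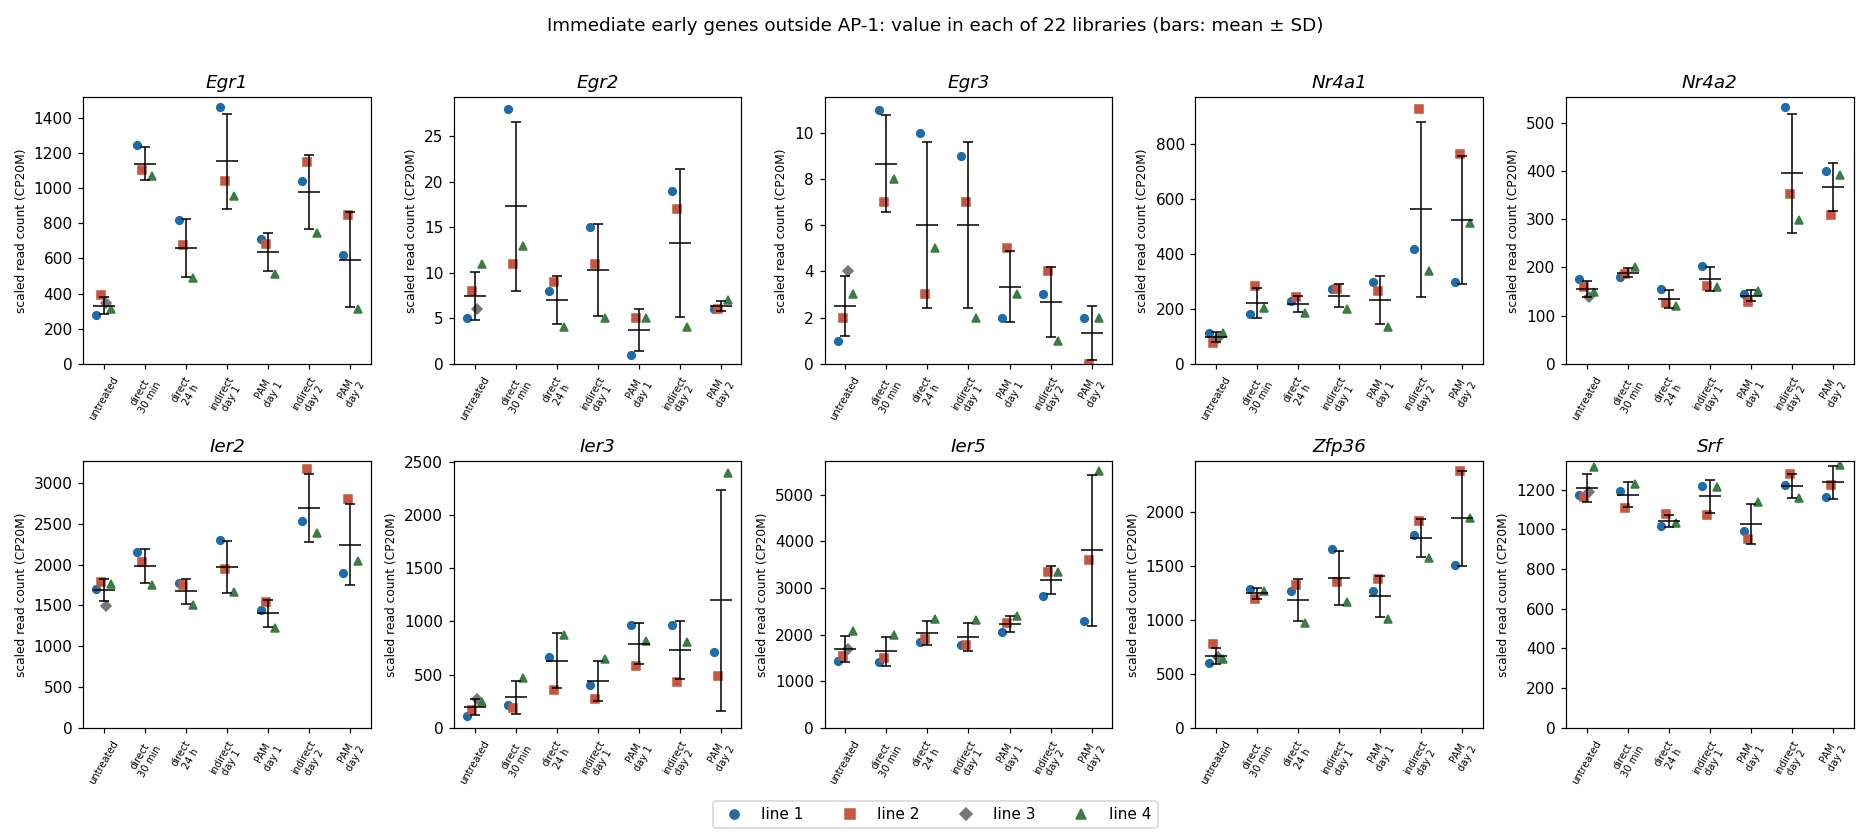
Scaled read count (vertical axis, reads per 20 M) of the 10 genes in each library by group, with the organoid line as the symbol and the group mean ± SD as bars. Zfp36 lies between 602 and 778 in the untreated libraries and between 969 and 2389 in the treated ones, while Srf stays between 950 and 1325 throughout.

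The first comparison set the 9 libraries with 24 h of exposure that began on day 1 (direct CAP for 24 h, and PAM or indirect CAP from day 1) against the 4 untreated libraries. Egr1, Nr4a1 and Ier3 rose, and none of the 9 members tested fell. A gene is said to have risen or fallen where limma's Benjamini-Hochberg adjusted p over all genes was under 0.01 and the log2 fold change of (value + 1) at least 1 either way. That held for 3 of 9 members in the upward direction, against 4.27% of all 18490 genes tested, and for none downward, against 2.07%. Egr1 and Nr4a1 were named in the study from these same libraries, so their direction here is not independent of it. All 9 treated libraries were above all 4 untreated ones for 4 members (Egr1, Nr4a1, Ier3 and Zfp36), as for 7.16% of all genes. No member was below in all 9, against 10.5% of all genes. The median log2 fold change was 0.30 over the tested members and -0.05 over all genes. The 9 treated libraries came from 3 lines, each entered 3 times. The test took them as independent, so its p-values do not measure the spread between lines alone. Egr3 did not reach the minimum level of 10 in at least 3 libraries, and Egr2 reached it in some comparisons only.

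Egr1, the most studied of the EGR factors, lies on chromosome 18 (34859823 to 34864984, GRCm38, plus strand). Its scaled read count in untreated lines 1 to 4 was 275, 389, 346 and 314. With direct CAP it was 1246, 1102 and 1070 after 30 min in lines 1, 2 and 4, and 817, 674 and 490 after 24 h. All 6 of these were above every untreated library, and the 30 min libraries were also above every 24 h library. With indirect CAP, Egr1 was at 1460, 1038 and 958 from day 1 and at 1043, 1150 and 745 from day 2. With PAM it was at 709, 684 and 512 from day 1 and at 621, 848 and 311 from day 2. Among the treated groups, PAM from day 2 alone overlapped with untreated organoids, through line 4.

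In limma's test Egr1 rose 3.44-fold by the ratio of means at 30 min of direct CAP (log2 fold change 1.79 ± 0.13 SE, adjusted p = 0.00696). It was the single gene of 17731 tested that passed the threshold in that comparison, which is 0.00564% of them. That call rests on every library: without any 1 of the 7, the log2 fold change stayed at 1.70 to 1.87 but the adjusted p was 0.0127 to 0.0875. With the organoid line as a block the log2 fold change was 1.81 and the adjusted p 0.0326. Here and below, a block against untreated organoids rests on the pairing of untreated lines 1 and 2. That pairing is in doubt, since each correlated more with treated libraries of the other line. Egr1 rose to a like extent with indirect CAP from day 1 (log2 1.78 ± 0.17, adjusted p = 0.00269) and from day 2 (1.55 ± 0.17, adjusted p = 0.000293). The day 1 call was lost without untreated line 4 (adjusted p = 0.0108).

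For 3 groups Egr1 was short of the threshold. The log2 fold change was 0.97 ± 0.19 with direct CAP for 24 h (adjusted p = 0.0125) and 0.93 ± 0.16 with PAM from day 1 (adjusted p = 0.00235). The first became a call without line 4 of that group (1.17, adjusted p = 0.00902), and the second without untreated line 2 (1.02, adjusted p = 0.00413) or treated line 4 (1.08, adjusted p = 0.00299). With PAM from day 2 it was 0.74 ± 0.31 (adjusted p = 0.0834), and leaving out line 4 gave 1.14 with an adjusted p of 0.00223. Over the 9 libraries of the first comparison it was 1.23 ± 0.24 (adjusted p = 0.00184), and it stayed past the threshold without any 1 of the 13 libraries.

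Egr2 and Egr3 are relatives of Egr1 that bind the same GC-rich element. Egr2 was at 5, 8, 6 and 11 untreated and at 28, 11 and 13 after 30 min of direct CAP, with a log2 fold change of 1.05 ± 0.40 (adjusted p = 0.163). Egr3 was at 1, 2, 4 and 3 untreated and at 11, 7 and 8 at 30 min, so its 3 treated libraries were above all untreated ones at a handful of reads each. With no minimum level applied, limma gave Egr3 a log2 fold change of 1.52 and an adjusted p of 0.167 there. In the other groups Egr2 ranged from 1 to 19 and Egr3 from 0 to 10, and both overlapped with the untreated libraries.

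**Figure D2:**
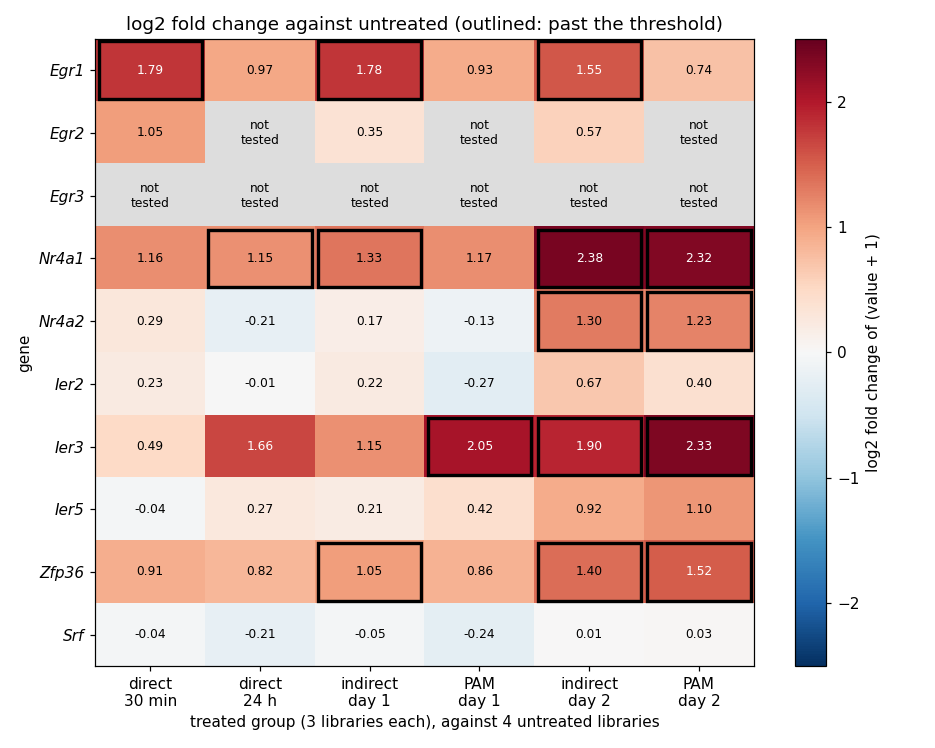
log2 fold change of (scaled read count + 1) for the 10 genes (rows) in the 6 treated groups (columns), each against the same 4 untreated libraries, with colour for the value, outlines for changes past the threshold and grey for genes not tested. Egr1, Nr4a1, Ier3 and Zfp36 are above 0 in all 6 columns, Nr4a2 is past the threshold in the 2 day 2 columns only, and Srf lies between -0.24 and 0.03.

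Nr4a1, a nuclear receptor induced by many stress and growth signals, lies on chromosome 15 (101254269 to 101274795, plus strand). Its scaled read count was 111, 76, 93 and 113 in untreated lines 1 to 4. It was at 180, 282 and 204 after 30 min of direct CAP and at 229, 242 and 184 after 24 h. Every treated library in the whole set was above every untreated one, down to the lowest, 134 in line 4 with PAM from day 1. The day 2 groups held the highest values, 418, 930 and 340 with indirect CAP and 299, 764 and 513 with PAM.

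Nr4a1 rose with direct CAP for 24 h (log2 fold change 1.15 ± 0.19, adjusted p = 0.00765), where 1.25% of 17335 genes rose. It rose with indirect CAP from day 1 (1.33 ± 0.19, adjusted p = 0.00623). Both calls were lost without any 1 of their 7 libraries (adjusted p 0.0127 to 0.0298 and 0.0103 to 0.0205) and with the line as a block (adjusted p = 0.027 and 0.0148). From day 2 it rose with both conditioned media, by 2.38 ± 0.33 in indirect CAP (adjusted p = 0.000782) and 2.32 ± 0.31 in PAM (adjusted p = 0.000856), and these calls held without any 1 library. At 30 min of direct CAP and with PAM from day 1 the log2 fold changes were 1.16 ± 0.21 (adjusted p = 0.1) and 1.17 ± 0.29 (adjusted p = 0.0119). The second became a call without line 4 of that group (1.53, adjusted p = 0.00256).

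Nr4a2, best known from dopaminergic neurons, lies on chromosome 2 (57106830 to 57124003, minus strand). Its scaled read count was 175, 159, 138 and 149 untreated, and 181, 186 and 200 after 30 min of direct CAP. After 24 h of direct CAP it was 155, 127 and 120, and with PAM from day 1 it was 144, 129 and 152. From day 2 it was 533, 353 and 299 with indirect CAP and 400, 309 and 391 with PAM, all above every other library. Only in these 2 of the 6 groups did Nr4a2 rise, with log2 fold changes of 1.30 ± 0.20 (adjusted p = 0.00128) and 1.23 ± 0.15 (adjusted p = 0.000682). Both held without any 1 library. In the other 4 groups the log2 fold change was between -0.21 and 0.29.

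Zfp36 lies on chromosome 7 (28376784 to 28380253, minus strand). It was at 602, 778, 659 and 637 in untreated lines 1 to 4. It was at 1285, 1194 and 1270 after 30 min of direct CAP and at 1271, 1326 and 969 after 24 h. With indirect CAP it was at 1660, 1356 and 1166 from day 1 and at 1794, 1919 and 1576 from day 2. All 18 treated libraries were above all 4 untreated ones, as for Nr4a1. Zfp36 rose with indirect CAP from day 1 (log2 1.05 ± 0.14, adjusted p = 0.0047), from day 2 (1.40 ± 0.11, adjusted p = 7.5e-05) and with PAM from day 2 (1.52 ± 0.17, adjusted p = 0.000435). The day 1 call held only when line 4 of that group was left out, was lost without each of the other 6 libraries (adjusted p 0.0112 to 0.0171) and was lost with the line as a block (0.0109). Both day 2 calls held without any 1 library.

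In the remaining groups Zfp36 was under the fold limit, at 0.82 ± 0.14 with direct CAP for 24 h (adjusted p = 0.00798) and 0.86 ± 0.13 with PAM from day 1 (adjusted p = 0.00154). At 30 min of direct CAP it was at 0.91 ± 0.10 (adjusted p = 0.0534). Over the first comparison it was 0.91 ± 0.12 with an adjusted p of 0.000261. A gene on the opposite strand, Gm44710, overlaps Zfp36 and had 91 to 180 scaled reads per library, at most 17.4% of the Zfp36 value. Whether reads were counted by strand is not given in the sources used here.

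Ier3, an early response gene linked to cell survival, lies on chromosome 17 (35821684 to 35822923, plus strand). It was at 108, 166, 273 and 243 in untreated lines 1 to 4, a coefficient of variation of 37.9%. After 30 min of direct CAP it was at 210, 183 and 468 and overlapped with the untreated libraries, and after 24 h it was at 670, 353 and 873 and did not. With PAM from day 1 it was at 964, 585 and 819. With PAM from day 2 it was at 711, 489 and 2394, where line 4 stood more than 3 times above the other two lines.

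Ier3 rose with PAM from day 1 (log2 2.05 ± 0.32, adjusted p = 0.0016), and this call held without any 1 library. It was the single member called there, where 4.83% of 17357 genes rose. It rose from day 2 with indirect CAP (1.90 ± 0.37, adjusted p = 0.00401) and with PAM (2.33 ± 0.54, adjusted p = 0.00884). The indirect call was lost without untreated line 2 (adjusted p = 0.0138) or without line 1 or line 4 of the treated group (0.0173 and 0.0161). The PAM call was lost without any untreated line or treated line 1 (adjusted p 0.0139 to 0.0258). Over the first comparison Ier3 was at 1.62 ± 0.33 (adjusted p = 0.0025), lost without untreated line 1 or 2 (adjusted p = 0.0134 and 0.0109). With direct CAP for 24 h and indirect CAP from day 1 it was short of the threshold at 1.66 ± 0.38 (adjusted p = 0.0221) and 1.15 ± 0.37 (adjusted p = 0.0571).

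Ier5, a single-exon gene on chromosome 1 (155096361 to 155099636, minus strand), was at 1439, 1537, 1697 and 2073 untreated. At 30 min of direct CAP it was at 1422, 1506 and 1998, with a log2 fold change of -0.04 ± 0.16. From day 2 it was at 2830, 3340 and 3339 with indirect CAP and at 2294, 3610 and 5517 with PAM, above all untreated libraries in both. The log2 fold changes were 0.92 ± 0.13 (adjusted p = 0.00093, under the fold limit) and 1.10 ± 0.27 (adjusted p = 0.0117). With the line as a block the PAM value was 1.11 and passed (adjusted p = 0.00624), as did 14.9% of all genes in either direction.

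Ier2, a single-exon gene on chromosome 8 (84661331 to 84662852, minus strand), was at 1707, 1783, 1489 and 1761 untreated and was the most abundant member per length. With indirect CAP from day 2 it was at 2535, 3174 and 2387 (log2 0.67 ± 0.11, adjusted p = 0.00211, under the fold limit). With PAM it was at 1442, 1545 and 1224 from day 1 and at 1892, 2810 and 2039 from day 2. The day 1 PAM value was a log2 fold change of -0.27 ± 0.11 (adjusted p = 0.0737) and the day 2 value 0.40 ± 0.15 (adjusted p = 0.054). Ier2 thus stood on either side of the untreated level in the PAM groups, and neither difference passed.

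Srf, on chromosome 17 (46548329 to 46556175, minus strand), was the flattest of the well detected members. It was at 1173, 1161, 1189 and 1315 untreated, and at 1019, 1078 and 1030 after 24 h of direct CAP. With PAM from day 1 it was at 993, 950 and 1139. In these 2 groups all 3 treated libraries were below all untreated ones, as were 19.1% and 29.7% of all genes, and the log2 fold changes were -0.21 ± 0.08 (adjusted p = 0.109) and -0.24 ± 0.09 (adjusted p = 0.0672). The median of all genes was itself at -0.13 with PAM from day 1, and under quantile normalization Srf was at -0.13 there. In the 4 other groups the log2 fold change was between -0.05 and 0.03. Over the first comparison it was -0.17 ± 0.08 (adjusted p = 0.112). The overlapping gene Gm26904 had 116 to 228 scaled reads per library, at most 18.6% of the Srf value.

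The 6 treated groups can be read together by their counts, all against the same 4 untreated libraries, which therefore bear on every value. With direct CAP for 30 min, 1 of 9 tested members rose (Egr1), against 0.00564% of all genes. With direct CAP for 24 h, 1 of 8 rose (Nr4a1), against 1.25%. With indirect CAP from day 1, 3 of 9 rose (Egr1, Nr4a1 and Zfp36), against 0.831% of all genes. In PAM from day 1, 1 of 8 rose (Ier3), against 4.83%. From day 2, 5 of 9 rose with indirect CAP (Egr1, Ier3, Nr4a1, Nr4a2 and Zfp36), against 6.2% of all genes, and 4 of 8 with PAM (Ier3, Nr4a1, Nr4a2 and Zfp36), against 6.82%. No member fell in any group, against 0% of all genes at 30 min of direct CAP, 0.917% at 24 h, 0.477% (indirect CAP) or 5.4% (PAM) in the day 1 groups, and 5.71% or 10.5% in the day 2 groups. Counting members whose 3 treated libraries were all above the untreated ones gave 4 of 9 at 30 min (Egr1, Nr4a1, Nr4a2 and Zfp36), against 12.4% of all genes. It gave the same 4 members in the 3 groups with 24 h of exposure from day 1 (Egr1, Ier3, Nr4a1 and Zfp36), against 11.6%, 16.7% and 17.1%. From day 2 it gave 7 of 9 with indirect CAP and 6 of 8 with PAM, against 22.7% and 20.7%.

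Treated groups were then set against each other to compare exposure times and forms of treatment. By the study's design, day 2 and day 1 groups differed in start of exposure, age of the treated medium and time in fresh medium before collection. These cannot be told apart here. In direct CAP, no member passed limma's threshold between 24 h and 30 min, and 0% of all 17668 genes did. At an unadjusted p under 0.05, 4 of 9 members differed, against 21.4% of all genes. Egr1, Egr2, Nr4a2 and Srf had every 24 h library below every 30 min library, as did 20.6% of all genes. Egr1 was lower at 24 h by -0.81 ± 0.19 on the log2 scale (adjusted p = 0.205), with the difference negative in all 3 lines (-0.61, -0.71 and -1.13 in lines 1, 2 and 4). Ier3 was at 1.17 ± 0.43 (adjusted p = 0.209), and with the line as a block it passed (adjusted p = 0.00953), as did 1.13% of all genes. Nr4a1 was at -0.01 ± 0.21 and Zfp36 at -0.08 ± 0.14.

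Between indirect CAP from day 2 and from day 1, Nr4a2 was at 1.13 ± 0.23 (adjusted p = 0.0493), Ier5 at 0.71 ± 0.13 (adjusted p = 0.0401) and Nr4a1 at 1.05 ± 0.36 (adjusted p = 0.157). All 3 had every day 2 library above every day 1 library, as did Ier2 and as did 12.1% of all genes. None of the 9 members tested passed, against 0.0111% of all genes, and 5 had an unadjusted p under 0.05 in limma's test, against 21.7%. With the line as a block Nr4a1 and Nr4a2 passed (adjusted p = 0.00359 and 0.00023), as did 3.46% of all genes. Egr1 was at -0.23 ± 0.21 (adjusted p = 0.574).

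Between PAM from day 2 and from day 1, Nr4a2 was at 1.36 ± 0.17 (adjusted p = 0.0503), with 1.47, 1.25 and 1.36 in lines 1, 2 and 4. Fitting all 7 groups together, which shares the spread over 22 libraries, gave Nr4a2 an adjusted p of 0.000135 here, where 4.55% of all genes passed, and 0.00325 with indirect CAP, where 0.315% did. Nr4a1 was at 1.15 ± 0.42 (adjusted p = 0.143), and its day 2 value in line 1, 299, was the same as on day 1. Ier3 was at 0.28 ± 0.56, with 1.55 in line 4 and -0.44 and -0.26 in lines 1 and 2. No member passed, and 0% of all genes did. At an unadjusted p under 0.05, 4 of 8 members differed by limma's test, against 26.8% of all genes, and Ier2, Nr4a2, Zfp36 and Srf had all day 2 libraries above all day 1 ones, as did 16.2% of all genes.

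**Figure D3:**
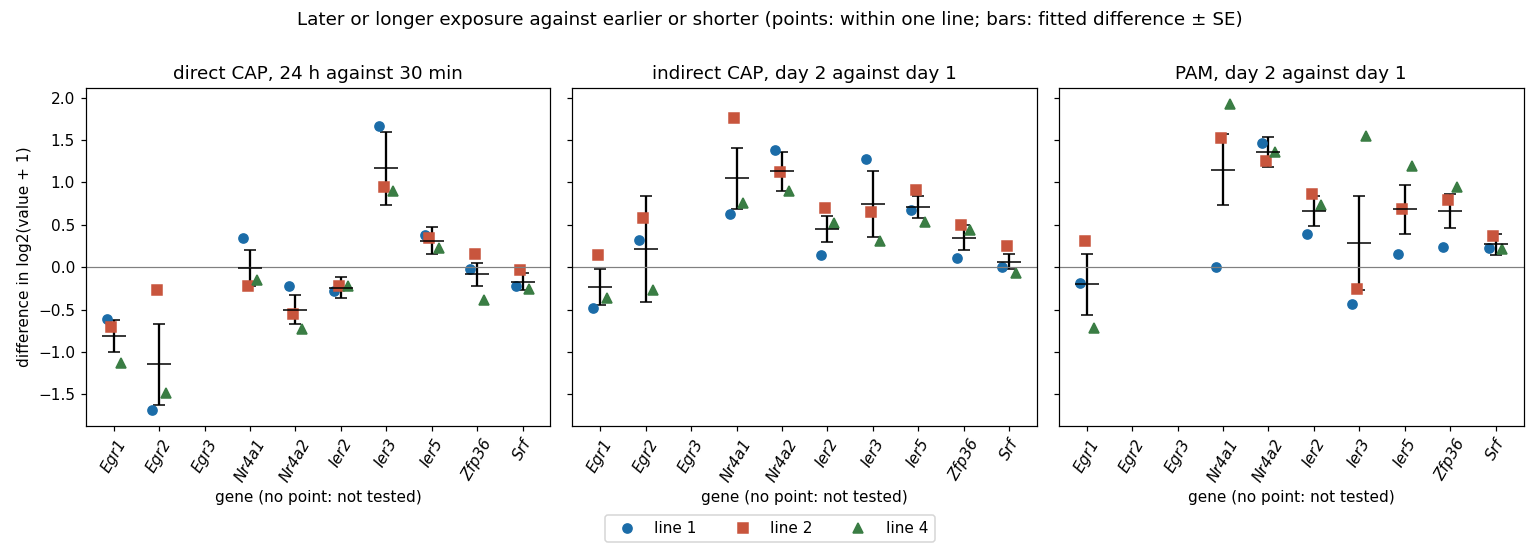
Difference in log2(scaled read count + 1) for each gene between the later or longer and the earlier or shorter exposure, in direct CAP, indirect CAP and PAM, with points for single lines and bars for the fitted difference ± SE. Nr4a2 is above 0 in all 3 lines in both day 2 comparisons, and Egr1 is below 0 in all 3 lines for direct CAP.

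Both conditioned media from day 1 were set against direct CAP for 24 h. Indirect CAP against direct CAP for 24 h gave Egr1 0.81 ± 0.23 (adjusted p = 0.629), with every indirect library above every direct one, as for Nr4a2 and for 10.8% of all genes, and 0.84, 0.62 and 0.97 in lines 1, 2 and 4. Ier3 was at -0.51 ± 0.40 (adjusted p = 0.674) and Nr4a1 at 0.18 ± 0.19 (adjusted p = 0.74). PAM against direct CAP for 24 h gave values between -0.26 (Ier2) and 0.39 (Ier3), with Egr1 at -0.04 ± 0.22 and Zfp36 at 0.04 ± 0.17. In both comparisons no member passed and 0% of all genes did. At an unadjusted p under 0.05 in limma's test, 1 of 8 members differed between indirect and direct CAP (Egr1), against 6.95% of all genes, and 0 of 8 between PAM and direct CAP, against 10.4%. PAM and indirect CAP were not tested against each other, although from day 1 Egr1 was at 512 to 709 in PAM and 958 to 1460 in indirect CAP. A p that misses the threshold does not show that the groups were alike.

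Lists of related genes were taken from general knowledge of these pathways, but with earlier results of these data known. The study named Fos, Plk3 and Ptgs2, among others listed, as raised in these same libraries. Their direction here is therefore not independent of it. Of 30 other immediate early genes (AP-1 subunits, dual specificity phosphatases, Klf and Plk genes and others), 29 were tested. In the first comparison 12 rose and none fell, against 4.27% and 2.07% of all genes, and the list's median was 0.93 on the log2 scale. Of the 12, the 4 with the highest values were Fosl1 at 2.34 ± 0.25 (adjusted p = 5.01e-05) and Ctgf at 2.30 ± 0.57 (adjusted p = 0.00725), Fos at 2.29 ± 0.24 (adjusted p = 3.74e-05) and Plk3 at 1.90 ± 0.12 (adjusted p = 5.05e-07). By group 0 rose at 30 min of direct CAP (15 of 29 at an unadjusted p under 0.05 in limma's test, against 24.9% of all genes). With direct CAP for 24 h 7 rose (1.25% of all genes), and 7 with indirect CAP from day 1 (0.831%). In PAM from day 1, 15 rose (4.83%), and from day 2, 17 rose with indirect CAP (6.2%) and 20 with PAM (6.82%). At 30 min the list's median was 0.47, beside 0.49 for the non-AP-1 members and 0.02 for all genes.

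Of 12 family members and cofactors (among them Egr4, Nr4a3, the ZFP36-like genes, the EGR co-repressors Nab1 and Nab2, and the SRF cofactors), 11 were tested, and 1 rose in the first comparison. That was Elk3, an ETS factor that works with SRF, at 1.26 ± 0.23 (adjusted p = 0.00152). Nr4a3, the third NR4A receptor, rose from day 2 with indirect CAP (2.28) and with PAM (1.75), as did 6.2% and 6.82% of all genes. Nr4a1 and Nr4a2 also rose in these 2 groups. In the first comparison Nr4a3 was short of limma's threshold, at 0.95 ± 0.25 (adjusted p = 0.0106), and Nr4a2 was at -0.06. Of 15 actin cytoskeleton genes known as MRTF-SRF targets, 13 were tested and 1 rose, Cnn2, which encodes calponin 2, at 1.14 ± 0.28 (adjusted p = 0.00736). The list's median was 0.29. Of 6 mRNAs known to be destabilised by tristetraprolin, 4 were tested and 1 rose. This was Ptgs2, which encodes the prostaglandin synthase COX-2, at 2.89 ± 0.62 (adjusted p = 0.00345), and the list's median was 0.64. None of these 3 lists had a member that fell. Among all genes 4.27% rose and 2.07% fell.

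**Figure D4:**
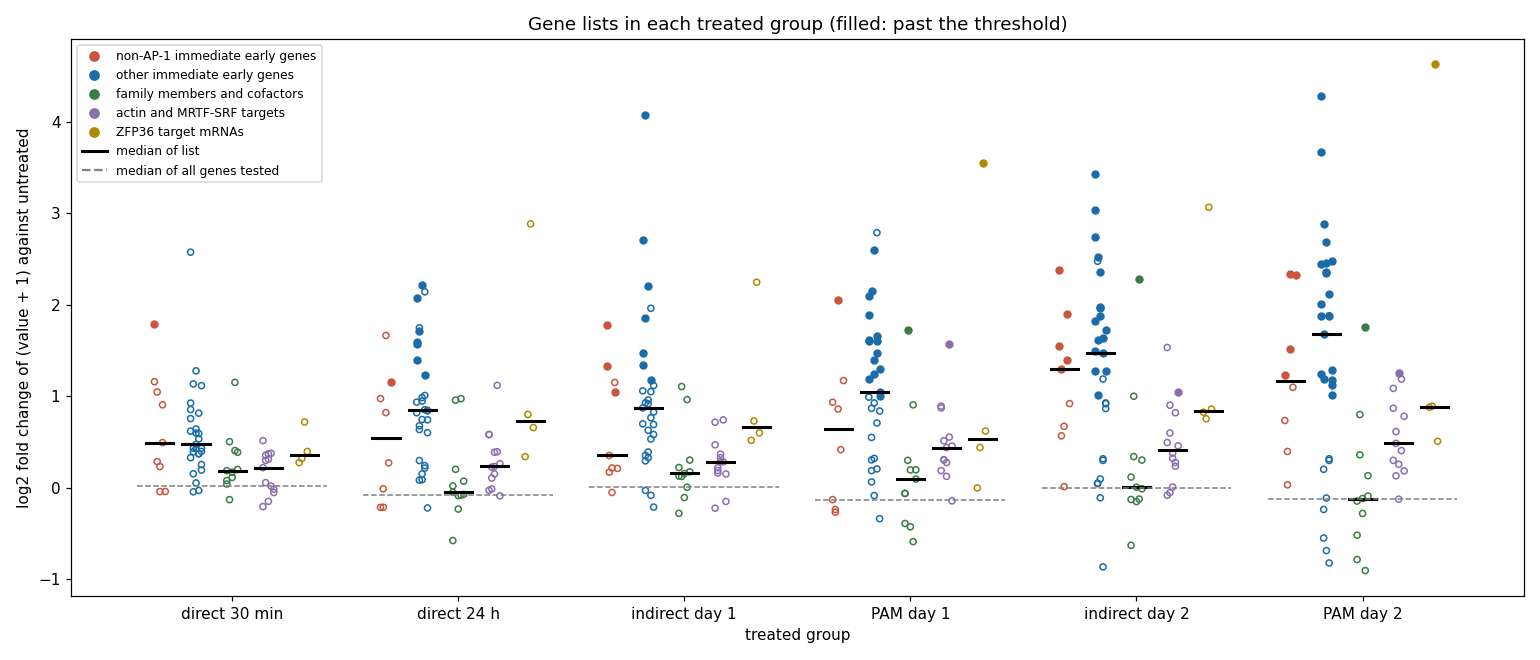
log2 fold change against untreated (vertical axis) of single genes in 5 lists for each treated group, filled where past the threshold, with black bars for list medians and dashed lines for the median of all genes tested. The non-AP-1 genes and the other immediate early genes lie above the dashed line by their medians in all 6 groups.

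Across the 22 libraries, Nr4a1 and Zfp36 varied together. Pearson's r of log2(value + 1) was 0.916 (Spearman 0.896), which placed Zfp36 at rank 2 of 19369 genes for Nr4a1, behind Atf3 (0.928). This is a description over libraries that share groups, lines and controls, so it has no p. Ier3 was most like Tinagl1 (0.982), Slc35e4 (0.978) and Ptgs2 (0.976). Ier5 was most like Pmaip1 (0.974), Tollip (0.965) and Rhob (0.962). Among the genes most like Egr1 were Gm15902 (0.866) and Pcsk4 (0.844), and its r with Ier3 was 0.05, so these 2 members had different profiles. Nr4a2 was most like Stard9 (0.958), Ier2 most like Gm11960 (0.888), Srf most like Erf (0.792), Zfp36 most like Tjap1 (0.939) and Egr2 most like Kcnab3 (0.811). After group means were subtracted, which leaves differences between lines within a group, r was 0.813 between Ier2 and Zfp36 and 0.741 between Ier2 and Nr4a1. Between Nr4a1 and Zfp36 it was then 0.611, at rank 401 of 19369 genes. Other pairs of members were opposed, with r at -0.610 for Ier2 and Ier3, -0.577 for Egr1 and Ier5 and -0.551 for Egr1 and Ier3.

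Markers of some cell types also differed between the groups, and their relation to the members' values was not tested. The summed scaled read count of the 4 intestinal stem cell markers (Lgr5, Olfm4, Ascl2 and Smoc2) was 28399 to 33368 untreated and 17213 to 26825 at 30 min of direct CAP. It was 4515 to 8518 with direct CAP for 24 h, 4840 to 12267 with indirect CAP from day 1 and 1951 to 2662 from day 2. With PAM it was 770 to 1998 from day 1 and 650 to 1925 from day 2. The labels call the cells stem cells, and in the longer exposures the defining markers of that type were low. The 6 epithelial markers were present in all libraries, with sums of 82854 to 94424 untreated, 89551 to 107648 and 110023 to 129581 with direct CAP for 30 min and 24 h, 96313 to 117063 and 94925 to 109895 with indirect CAP from day 1 and day 2, and 131105 to 135129 and 100860 to 146084 with PAM. Krt18 (log2 1.06) and Krt20 (1.75), both epithelial keratins, rose with PAM from day 1. Epcam went the other way, at 15909 to 17187 untreated and 11396 to 15980 treated. In the first comparison none of the 6 passed, with Epcam at -0.37 and the list's median at 0.50. In bulk RNA, fewer cells of a type and less RNA per cell cannot be told apart, and the part of a changed cell make-up in the members' values was not tested. The 6 mesenchymal markers summed to at most 17 per library, with Lum at 0 throughout, and 3 red blood cell markers to at most 9. The 6 immune markers summed to 96 to 176 untreated and 133 to 302 treated, with the pan-leukocyte gene Ptprc at 12 or less. Cd52 was at 67 to 82 untreated and 90 to 231 treated, Cd68 at 16 to 27 and 25 to 86, and Itgam at 10 to 68 and 1 to 62. Of these, Cd68 rose in the first comparison (log2 1.35, adjusted p = 0.000427 in limma's test). The 4 endothelial markers summed to 12 to 33 untreated and 20 to 111 treated, with Kdr at 1 or less. Tek was at 4 to 23 untreated and 6 to 104 treated, and Pecam1 at 7 to 11 and 1 to 28. The mitochondrial share of reads was 1.24% to 1.54% untreated, 1.14% to 1.47% at 30 min of direct CAP and 1.13% to 1.30% at 24 h. It was 1.05% to 1.5% with indirect CAP and 0.789% to 1.02% with PAM from day 1, and 0.668% to 0.88% in the day 2 groups. Its part in the members' values was not tested.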

How the data were processed

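Gene expression was measured by RNA-seq in 22 libraries. The authors trimmed reads with Trimmomatic 0.36, aligned them with STAR 2.5.3a to GRCm38, counted them with HTSeq 0.9.1 and tested them with edgeR. The unit deposited by the authors is a score, CP20M, made from read counts brought to about 20 M in each library and rounded up. The study's legends describe CP20M as divided by transcript length. The deposited values, however, summed to about 20 M and kept the spacing of whole reads, and depth estimated from it apart in genes under and over 1999 exonic bases differed by at most 2% in 21 of 22 libraries, so no division by length was assumed. Depth was 19.4 to 28.7 M reads (median 22.8), less certain in line 1 with PAM from day 2 (20.4 and 22.5 M by gene length), and raw counts were not used here. Near a value of 10, counting error alone is large.

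limma 3.58.1 (trended moderated test, R 4.3.3) was run on log2(value + 1) over genes at 10 or more in at least 3 of the fitted libraries, with adjustment over all genes tested. Where 2 single groups are compared, p-values measure the spread between organoid lines. The main test there is unpaired, so line differences that both groups share stay in that spread. The line as a block is among the alternatives. In the first comparison and the fit of all 7 groups, libraries of the same line recur with no term for the line. There the p-values treat them as independent. Gene IDs matched GENCODE vM21 for 52403 of 52636 genes (99.6%). The members and gene lists were chosen with earlier results of these data known. All members are named, of each list at most the 4 with the most change per direction in the first comparison, and for each member up to 3 genes with the highest correlation, of which 1 is not reported here. By their titles, same-numbered libraries come from the same line and so from the same animal. Treated libraries of one line correlated at 0.219 to 0.806 after group means were removed (45 of 45 pairs over 0.1). The untreated libraries of lines 1 and 2 correlated more with the other line (medians 0.541 and 0.353) than with their own (0.0751 and 0.132), so their pairing is in doubt. No library copied another. Figures were drawn with matplotlib 3.10.9 in Python 3.11.15. The alternatives left out each library in turn, used the line as a block, fitted all 7 groups together, dropped the filter, took a pseudocount of 10, normalized by quantiles, or called genes at an adjusted p of 0.05 whatever their fold change.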

Additional observations from a re-analysis of the deposited data

How the results depend on the processing

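Across 1326 member fold changes recomputed under the alternatives, 1248 kept their direction and side of the threshold, 46 lost the call, 32 gained one and none reversed past it, while 42 values changed sign without a call. The counts of members past the threshold moved as follows. With direct CAP for 30 min the count of 1 became 0 with all 7 groups in one fit and with the replicate block. With direct CAP for 24 h the count of 1 became 2 under quantile normalization, 0 with all groups in one fit, 0 with the replicate block and 4 at an adjusted p of 0.05 whatever the fold change. With indirect CAP from day 1 the count of 3 became 1 with the replicate block. With PAM from day 1 the count of 1 became 3 under quantile normalization and 5 at the looser threshold. Between treated groups, counts of 0 became 1 with the block (direct CAP, 24 h against 30 min), 1 with all groups, 2 with the block and 2 at the looser threshold (indirect CAP, day 2 against day 1), and 1 with all groups (PAM, day 2 against day 1). The replicate block changed no other count by over 1.5 times. Leaving out each library gave 0 to 0 at 30 min of direct CAP, 0 to 1 at 24 h, 0 to 2 and 1 to 3 with indirect CAP and PAM from day 1, 4 to 6 and 3 to 5 from day 2, and 2 to 3 over the 9 libraries of the first comparison. The causes were not tested. Over all genes, leaving out 1 library gave 34 (without treated line 1) to 377 calls with direct CAP for 24 h, beside 376 with all libraries, and 25 (without untreated line 2) to 110 with indirect CAP from day 1, beside 233. It gave 1134 (without treated line 4) to 1668 with PAM from day 1, beside 1775, and 651 (without untreated line 1) to 1309 in the first comparison, beside 1173. From day 2 it gave 1357 (without treated line 4) to 2185 with indirect CAP, beside 2127, and 2201 (without untreated line 1) to 2946 with PAM, beside 3063. The median of all genes was -0.13 and -0.12 with PAM from day 1 and day 2, and -0.06 and 0.00 under quantile normalization, where Nr4a2 with PAM from day 1 moved from -0.13 to 0.00. Depth limits Egr2 and Egr3, whose values rest on a few reads.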
